A study of Mus musculus with 24 samples.

Results

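P19 embryonal carcinoma cells that lack the retinoic acid receptor RARα were driven to differentiate either with all-trans retinoic acid (ATRA) or with a pair of synthetic agonists, BMS641 for RARβ and BMS961 for RARγ. The RNA of the 2 cultures at day 10 is compared here gene by gene. The members are the genes in the deposited list of either culture: 516 genes with ATRA and 411 with BMS641+BMS961, 683 in all, of the 1753 genes listed in at least 1 of the 23 gene tables of the series. Of the 683 genes, 244 were in both lists, and none was listed up with one treatment and down with the other.

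The labels call both cultures carcinoma stem cells of the P19 line. P19 is a mouse teratocarcinoma line whose cells resemble early epiblast and become neurons and glia when exposed to retinoids. The series holds 24 RNA-seq libraries of wild-type (WT) cells and of cells lacking RARα, RARβ or RARγ, 1 library per condition, collected at days 2, 4 or 10. Both libraries described here have the genotype labelled raraKO, a line in which CRISPR/Cas9 cleavage placed a puromycin resistance cassette in the gene, and whether it is a single clone is not given in the sources used here. One received ATRA at 1 µM, and the other received BMS641 and BMS961 at 0.1 µM each. Ligand was present for 4 days, after which cells stayed for 6 days in Neurobasal medium with N2 and with B27 lacking vitamin A. Both tables were made against a single library, WT cells given the vehicle ethanol and collected at day 2, so genotype, time and medium differ from the reference along with the ligand. No vehicle-treated library of the mutant line was analysed here. WT cells kept in ethanol to day 10 serve as background for time and medium. The agonist doses differ from the ATRA dose, so the values describe 2 cultures and not 2 ligands at a matched dose. Rara, Rarb and Rarg were in none of the tables, and loss of Rara could not be checked from them.

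Retinoic acid receptors are ligand-activated transcription factors that bind DNA together with retinoid X receptors. Without ligand they recruit corepressors to their target genes, and with ligand they exchange these for coactivators. ATRA activates RARα, RARβ and RARγ alike, so that in cells without RARα both treatments act through RARβ and RARγ. In pluripotent cells retinoids shut down the pluripotency network and open the Hox clusters, and they favour neural fates in the embryonic trunk and hindbrain while other cells of the same cultures can take mesenchymal fates.

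Each value below is the log2 value of a table, that is, the log2 ratio of a library to the day 2 WT ethanol library. Because this reference is common to both tables, the difference of the log2 values of a gene, ATRA minus BMS641+BMS961, is read as the log2 ratio of the 2 mutant libraries. The reference cancels in it only if the separate fit of each table left the values unshrunken, which is not known here. With 1 library per treatment no difference has a replicate check and no p-value is given. The only error at hand is the standard error implied by each log2 value and its p-value (the "implied SE"), which comes from the authors' fit and not from repeat cultures. A gene is in a table only when its p-value was under 0.01. This let in a smallest absolute log2 value of 4.17 with ATRA and of 3.35 with BMS641+BMS961, the median implied SE being 2.00 and 1.65. "Not listed" therefore means that a gene did not reach this limit, not that it was unchanged, and the ATRA table is the coarser of the pair. Read depth is not held in the tables and is unknown here. Some genes of a table shared exactly the same log2 value and p-value: 44 of the 333 genes up with ATRA, among them Hoxc8, Hoxc5, Lhx5, Bgn and Slc17a6, and 23 of the 294 up with BMS641+BMS961, among them Neurod1, Onecut1, Gbx2, Pou4f2, Tbx2, Pdgfra, Ccn4 and Gabra2. Whether such values rest on few reads was not tested.

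ATRA listed more genes than BMS641+BMS961 in either direction. With ATRA 333 genes were up (19% of the 1753 genes) and 183 down (10.4%), against 294 up (16.8%) and 117 down with BMS641+BMS961. Genes up in both tables numbered 167 (9.53%), those up with ATRA only 166 (9.47%) and those up with BMS641+BMS961 only 127 (7.24%). Among falls, 77 genes were down in both (4.39%), 106 with ATRA only (6.05%) and 40 with BMS641+BMS961 only (2.28%). Of the 127 genes up with BMS641+BMS961 only, 42 had values under 4.17, the smallest value that the ATRA table holds in either direction, and 22 stood above 6.95. This is the highest listing limit of the ATRA table, 2.58 times the highest implied SE among its genes. Of the 166 genes up with ATRA only, 92 stood above the highest listing limit of the BMS641+BMS961 table, 6.63. Genes that a table does not list may have wider errors than these.

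**Figure D1:**
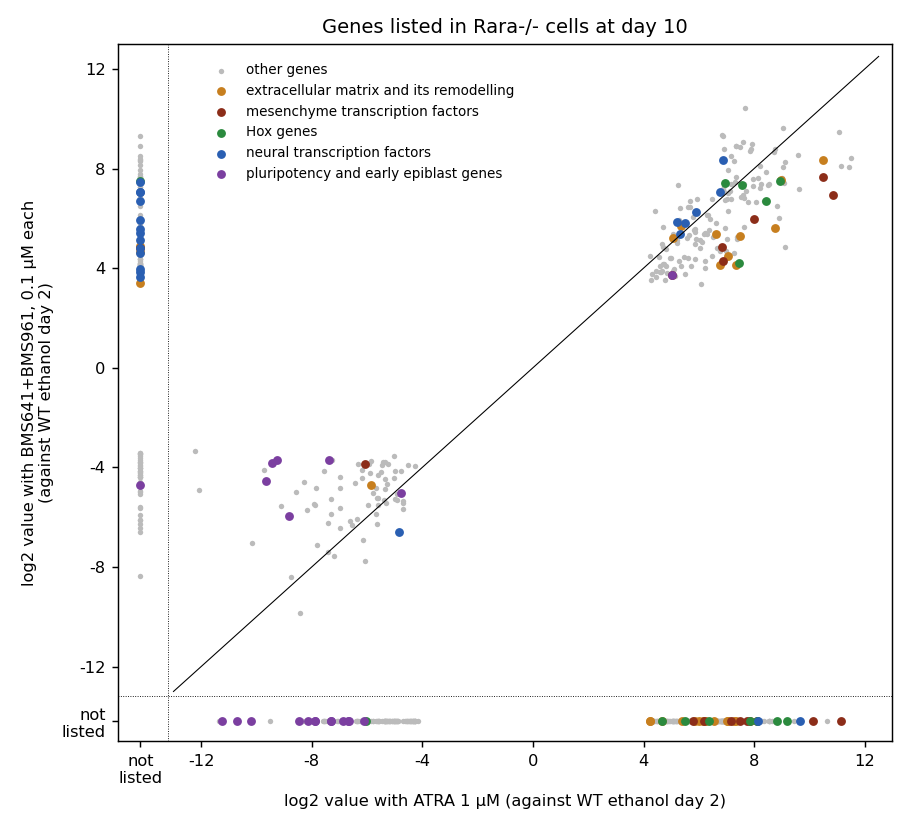
Log2 values of the 683 genes with ATRA (x axis) and with BMS641+BMS961 (y axis), both against the day 2 WT ethanol library, with 1 point per gene, named gene lists in colour and genes absent from a table in the strips marked not listed. The diagonal is equal value: most extracellular matrix and mesenchyme genes lie below it or in the lower strip. The exceptions are Tnc, Col14a1, Acan, 3 matrix genes and Msx1 listed with BMS641+BMS961 only, and 1 mesenchyme factor down in both. Pluripotency genes extend to −11.24 with ATRA, and most neural transcription factors lie in the left strip.

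Genes up in both tables were mostly higher with ATRA. The difference had a median of 0.67 on the log2 scale, with quartiles at −0.18 and 1.43, and 118 of the 167 genes were higher with ATRA. It was within 1 log2 unit in 88 of them. Across all 244 genes in both tables, 28 (11.5%) differed by more than 1 combined implied SE, the root of the summed squares of both errors. In these 28 genes the ATRA value was the more extreme: 11 were higher with ATRA among the genes that were up and 17 were lower with ATRA among those that were down. None of the genes up in both differed by more than 2 combined implied SE, and 4 of those down in both did. The combined error carries the reference in both terms and is too wide where the reference cancels. Entry to the ATRA table took larger absolute log2 values, the smallest being 4.17, against 3.35 with BMS641+BMS961. Genes in both tables are thereby filtered toward more extreme ATRA values, here and in the gene lists below. How much of these counts comes from the filter was not tested.

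The strongest genes common to both cultures joined a neuronal receptor subunit with mesenchymal genes. Gria2, a subunit of AMPA-type glutamate receptors, reached 11.07 with ATRA and 9.46 with BMS641+BMS961. Pdgfra, the PDGF receptor of mesenchyme and of oligodendrocyte precursors, had 11.13 and 8.10. Col3a1, a fibrillar collagen of connective tissue, had 10.50 and 8.33, and Osr1, a transcription factor of intermediate mesoderm and limb connective tissue, had 10.49 and 7.65. Ccn4, a matricellular protein and Wnt target, had 11.43 and 8.07. Kctd12, an auxiliary subunit of GABA-B receptors, had 11.48 and 8.41, with 7.18 in WT ethanol cells at day 10. The cell cycle inhibitor gene Cdkn2c (9.58 and 8.55) and Gprc5a, an orphan receptor gene known to be retinoid-inducible (9.04 and 9.64), were listed in the same day 10 vehicle library as well, at 8.54 and 9.35. All 8 of these differences were smaller than their combined implied SE.

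Pluripotency genes were listed down more often, and lower, with ATRA. Of 25 genes of the pluripotency and early epiblast list found in any table, 19 were down with ATRA (76%, against 10.4% of all listed genes). With BMS641+BMS961 7 of the 25 were down, against 117 of all 1753 listed genes. Of the 25, 6 were down in both, 13 with ATRA only (52%, against 6.05% of all listed genes) and 1, Fgf5, with BMS641+BMS961 only. Pou5f1, which encodes the pluripotency factor OCT4 and lies in mm9 at chr17:35642982-35647721, was at −11.24 with ATRA and not listed with BMS641+BMS961. In ATRA-treated cells of the other genotypes it stood at −9.88 (WT), −11.04 (RARβ-deficient) and −10.94 (RARγ-deficient), whereas the WT BMS641+BMS961, Rara-/- BMS961 and day 10 vehicle tables did not list it. Gdf3, a TGF-β family ligand of the epiblast, was at −10.70 with ATRA, at −4.50 in WT cells with BMS641+BMS961 and at −3.64 in Rara-/- cells with BMS961. Nanog, at −7.30 with ATRA, was at −4.32 in WT cells with BMS641+BMS961. Utf1, a chromatin factor of pluripotent cells, was at −10.21 with ATRA. Nr5a1, an orphan nuclear receptor gene of steroidogenic tissue outside this list, was at −9.50 with ATRA only.

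Nanog, Sall4, Lin28a, Zscan10 and Otx2, which encode core or associated pluripotency and epiblast factors, were also down with ATRA only, from −8.46 (Lin28a) to −6.86 (Sall4). The Nodal pathway ligands Nodal, Lefty1 and Lefty2 had −7.31, −8.15 and −6.70. Day 10 vehicle cells listed 3 of these genes, Nanog at −3.24, Lefty1 at −3.05 and Lefty2 at −7.64. Of the 13 genes down with ATRA only, 12 were below −6.63, past the highest listing limit of the BMS641+BMS961 table. Dnmt3l, a regulator of DNA methylation in germ cells and early embryos, was the exception at −6.10.

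Among the pluripotency genes down in both tables, 5 of 6 were lower with ATRA, against 61 of all 77 genes down in both. The 6 genes had a median difference of −4.39, against −1.17 over the 77. Tdgf1, the Nodal co-receptor also called Cripto, was at −9.44 with ATRA and −3.84 with BMS641+BMS961, a difference of −5.60 with a combined implied SE of 2.58. Eras, a Ras gene of embryonic stem cells, differed by −5.56 (−9.25 and −3.69) and Fgf4, the autocrine growth factor of these cells, by −5.10 (−9.65 and −4.55). With BMS641+BMS961, Tdgf1 and Fgf4 stood near their values in day 10 vehicle cells, −3.37 and −4.17. The ATRA value of Fgf4 was the same, −9.65, in RARβ-deficient and RARγ-deficient cells given ATRA. Whether such a shared value is a lower bound set by few reads was not tested. Dnmt3b, a de novo DNA methyltransferase, had −7.38 and −3.71, and Nr0b1, an orphan nuclear receptor of the pluripotency network, −8.81 and −5.94. Foxd3, which marks epiblast and neural crest, was alike in both at −4.78 and −5.04 and in vehicle at −4.63. Klf4, a pluripotency factor that differentiated epithelia also express, was up in both, at 5.04 and 3.74, and at 3.87 in day 10 vehicle cells.

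The most negative differences of all genes in both tables were Pou5f1-rs4 (−8.86), the cytochrome P450 gene Cyp2b23 (−7.18) and D7Ertd143e (−5.61), followed by Tdgf1, Eras and Fgf4. D7Ertd143e, like Fgf4, had an ATRA value shared across genotypes, −9.71 here and in ATRA-treated WT and RARβ-deficient cells. Its difference may be bounded by that value, which was not tested. Pou5f1-rs4 and Pou5f1-rs6, the latter at −11.34 with ATRA only, are retrocopies of Pou5f1, and reads of near-identical copies can be assigned to the wrong one, so their values are uncertain. The lowest values common to both tables included Tspan10 (−8.43 and −9.85), Rcvrn, the photoreceptor calcium sensor gene recoverin (−8.74 and −8.40), and the urinary protein gene Mup6 (−10.15 and −7.03). Tspan10 and Rcvrn were at −10.07 and −9.10 in WT ethanol cells at day 10. Over all 77 genes down in both the median difference was −1.17, and 61 were lower with ATRA.

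**Figure D2:**
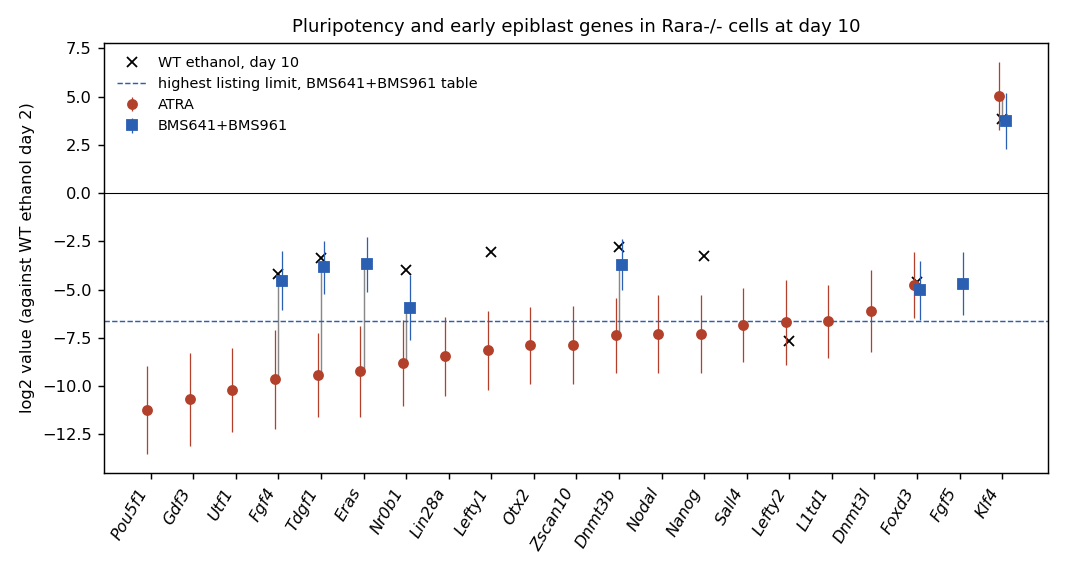
Log2 values (y axis, against the day 2 WT ethanol library) of the pluripotency and early epiblast genes listed in Rara-/- cells at day 10, for ATRA (circles), BMS641+BMS961 (squares) and, where listed, WT ethanol at day 10 (crosses), with implied SE as bars and the highest listing limit of the BMS641+BMS961 table dashed. In 13 genes only the ATRA value is listed downwards, and 12 of these lie below the dashed line at −6.63.

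Only 40 genes were down with BMS641+BMS961 alone, and Fgf5 was the single member of the pluripotency list among them. The lowest was C1s1, a complement protease gene, at −8.36, which was also at −9.04 with BMS961 alone in the same mutant line. It was the only 1 of the 40 beyond the highest listing limit of the ATRA table. Clec2d (−6.61), Rasd1 (−6.44), the myeloid transcription factor gene Spi1 (−6.28) and the cardiac troponin I gene Tnni3 (−6.11) came next. Fgf5 itself, a growth factor of primed epiblast, was at −4.70.

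Hox genes were listed up more often with ATRA. They encode the transcription factors that set position along the body axis, and higher paralogue numbers mark more posterior levels. Of 23 Hox genes in any table, 12 were up with ATRA (52.2%, against 19% of all listed genes) and 6 with BMS641+BMS961 (26.1%, against 16.8%). Hoxa2 and Hoxa3, genes of the hindbrain and neck, had nearly the same values in both cultures, 6.94 and 7.40 for Hoxa2 and 7.57 and 7.36 for Hoxa3. Hoxb3 (8.93 and 7.48) and Hoxb4 (8.41 and 6.71) were higher with ATRA by 1.45 and 1.71, less than their combined implied SE of 3.55 and 3.02. Hoxb8 at chr11:96143219-96146639 (mm9), a gene of the trunk, was at 7.47 with ATRA and 4.19 with BMS641+BMS961, a difference of 3.28 against a combined implied SE of 2.52.

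Every other Hox gene of paralogue groups 5 to 9 in these 2 tables was listed with ATRA only, 7 genes in all. Hoxc8 was at 9.19, Hoxa7 at 8.82, Hoxc9 at 8.11, Hoxc6 at 7.86, Hoxb7 at 6.38, Hoxb9 at 5.49 and Hoxc5 at 4.66. The first 4 exceeded the highest listing limit of the BMS641+BMS961 table, and the other 3 did not. In ATRA-treated WT cells Hoxa7 was at 9.23, Hoxc8 at 7.46 and Hoxb9 at 6.04, and Hoxc5 was not listed. The tables of WT cells with BMS641+BMS961 and of day 10 vehicle cells held none of the 7. Hoxd10 was the single Hox gene listed up with BMS641+BMS961 only, at 7.51, and it was at 7.31 in the day 10 vehicle library. Hoxc13 was down with ATRA only, at −6.06, and at −7.38 in that vehicle library.

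**Figure D3:**
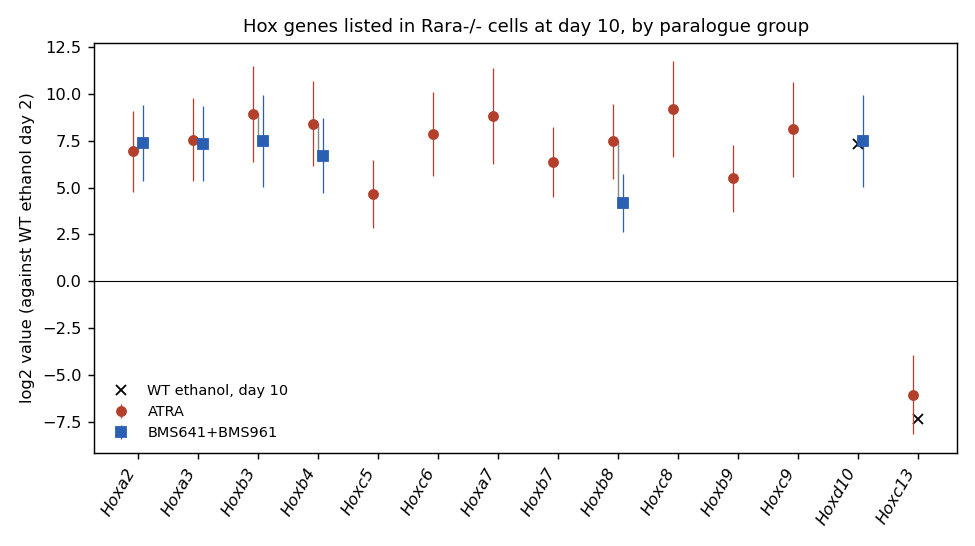
Log2 values (y axis, against the day 2 WT ethanol library) of the 14 Hox genes listed in Rara-/- cells at day 10, ordered by paralogue group along the x axis, for ATRA (circles), BMS641+BMS961 (squares) and WT ethanol at day 10 (crosses), with implied SE as bars. Both markers are present for Hoxa2 to Hoxb4 and for Hoxb8, and 7 genes from Hoxc5 to Hoxc9 have an ATRA value only.

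Of the genes that make, bind or break down retinoids, 2 of the 10 in any table were listed here, against 683 of all 1753 listed genes. Aldh1a2, the enzyme that makes retinoic acid from retinaldehyde in embryonic mesoderm (chr9:71063596-71144050, mm9), showed the largest positive difference of all genes in both tables. It was at 9.13 with ATRA and at 4.85 with BMS641+BMS961, a difference of 4.28 (19.4-fold) against a combined implied SE of 2.91. It was at 5.75 in ATRA-treated WT cells and not listed in day 10 vehicle cells. Crabp1, a cytoplasmic retinoic acid binding protein, was listed with BMS641+BMS961 only, at 5.09. The retinoic acid hydroxylase genes Cyp26a1 and Cyp26b1 were in neither table.

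Transcription factors of mesenchyme were listed more often with ATRA. Of 28 in any table, 15 were up with ATRA (53.6%, against 19% of all listed genes) and 7 with BMS641+BMS961 (25%, against 16.8%). In 9 of them (32.1%, against 9.47%) the ATRA table alone listed the gene, and 7 of these 9 were above the highest limit of the other table. Meox1, a factor of the somite, had the highest value of all 166 genes up with ATRA only, at 11.13. Foxd1, a factor of kidney and facial mesenchyme, was at 10.11, although day 10 vehicle cells also had it at 7.11. Tcf21 (8.12), Tbx18 (7.74), Hand2 (7.47) and Foxc1 (6.19), which act in visceral, sclerotome, limb or vascular mesenchyme, were not listed in day 10 vehicle cells. Pitx1, a hindlimb factor, was at 7.15 with ATRA and at 7.38 in vehicle. All 6 mesenchyme factors up in both tables were higher with ATRA, by 1.28 to 3.92, as were 118 of all 167 genes up in both. Tbx2, a T-box repressor of heart and limb, led with 10.86 and 6.94, and Prrx1, a factor of limb and craniofacial mesenchyme, had 6.89 and 4.28. Msx1 was listed with BMS641+BMS961 only, at 4.80.

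Genes of the extracellular matrix were also listed more often with ATRA. Of 49 in any table, 23 were up with ATRA (46.9%, against 19% of all listed genes) and 13 with BMS641+BMS961 (26.5%, against 16.8%). Of the 10 up in both, 8 were higher with ATRA, against 118 of all 167 genes up in both. The 10 had a median difference of 2.17, against 0.67 over the 167. Col1a1 and Col1a2, the chains of type I collagen, had 7.35 and 8.74 with ATRA and 4.11 and 5.60 with BMS641+BMS961, differences of 3.24 and 3.14 that exceeded their combined implied SE of 2.43 and 2.60. Postn (7.06 and 4.50) and Vcan (6.77 and 4.11), which encode periostin and the proteoglycan versican, behaved alike. Tnc and Col14a1 were slightly lower with ATRA, by 0.12 and 0.36. The type VI collagen chains Col6a1 (5.38), Col6a2 (6.16) and Col6a3 (7.03), the small proteoglycan genes Lum (7.07), Bgn (7.27) and Dcn (4.23), and Eln, which encodes elastin (4.65), were listed with ATRA only. Of the 13 matrix genes listed with ATRA only, 4 were above the highest limit of the other table. Another type VI chain, Col6a5, which is not in the list, was down in both, at −7.55 with ATRA and −4.14 with BMS641+BMS961. The list members Col22a1 (4.65), Loxl4 (4.90) and Thbs1 (3.39) were up with BMS641+BMS961 only, the last under the smallest ATRA value. Of the genes named in this paragraph, day 10 vehicle cells listed Tnc at 4.05, Loxl4 at 6.05 and Thbs1 at 3.81.

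Other genes high with ATRA alone were Islr (10.65), which marks mesenchymal stromal cells, Mgp (10.13), the inhibitor of matrix calcification, and Agtr2 (10.04), the type 2 angiotensin II receptor of fetal mesenchyme. Dlx6os1, a noncoding RNA gene beside Dlx6 (9.68), and the retrotransposon-derived gene Rtl3 (9.43) were listed as well. Of 13 endoderm markers in any table, 2 were up with ATRA only (15.4%, against 9.47% of all listed genes), the factor genes Gata6 (7.46) and Foxa1 (6.25). The keratin gene Krt8 was up with BMS641+BMS961 only, at 3.50, as in day 10 vehicle cells. Of the muscle list, the sarcomere genes Myl3 and Tnnt1 were down in both, at −8.57 and −6.33 with ATRA and −4.97 and −3.87 with BMS641+BMS961. The smooth muscle gene Tagln was listed with BMS641+BMS961 only, at 3.99, and at 4.55 in day 10 vehicle cells.

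**Figure D4:**
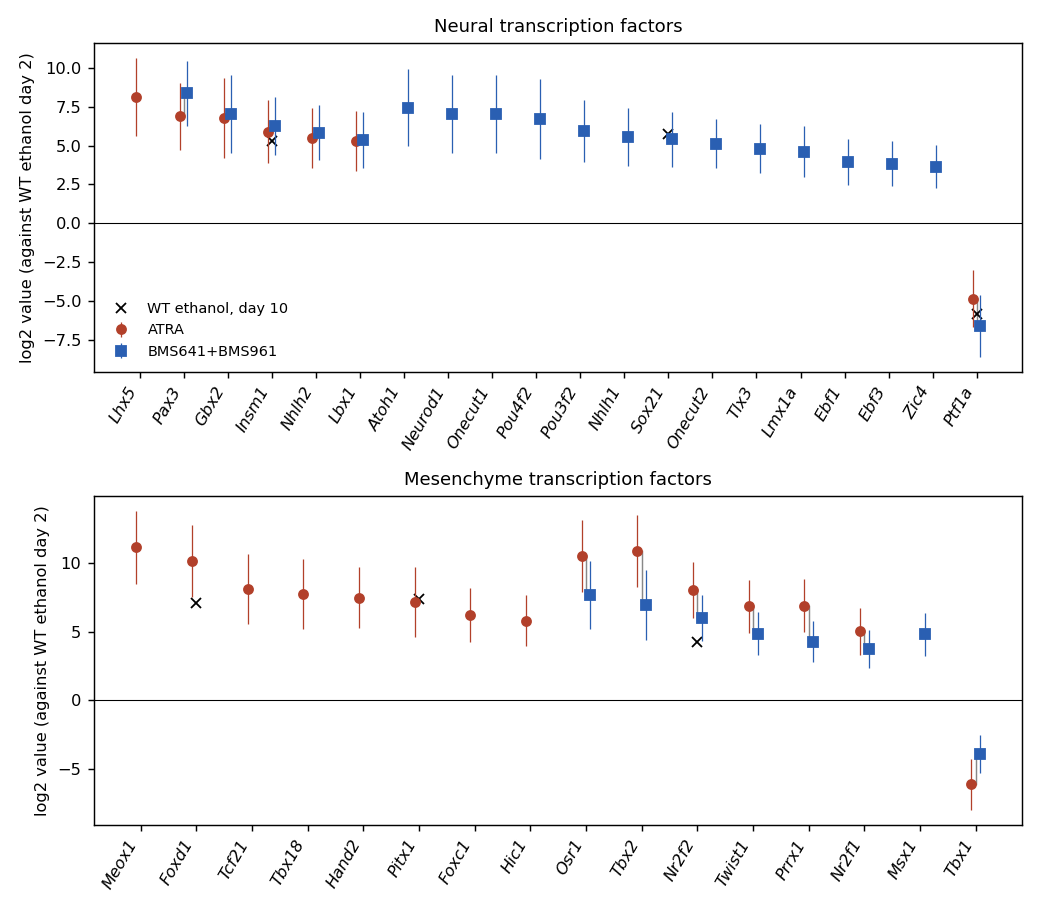
Log2 values (y axis, against the day 2 WT ethanol library) of neural (top) and mesenchyme (bottom) transcription factor genes listed in Rara-/- cells at day 10, for ATRA (circles), BMS641+BMS961 (squares) and WT ethanol at day 10 (crosses), with implied SE as bars. Of the genes drawn, 13 at the top carry a BMS641+BMS961 value only and 1 an ATRA value only, and at the bottom 8 carry an ATRA value only and 1 a BMS641+BMS961 value only.

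Neural transcription factors were listed up more often with BMS641+BMS961. Of 40 in any table, 8 were up with ATRA (20%, against 19% of all listed genes) and 19 with BMS641+BMS961 (47.5%, against 16.8%). The 6 that were up in both, Pax3, Gbx2, Insm1, Nhlh2 and Lbx1 among them, were all a little lower with ATRA, by 0.03 (Lbx1) to 1.47 (Pax3). Pax3, a factor of dorsal neural tube and neural crest, was at 6.88 with ATRA and 8.35 with BMS641+BMS961. Insm1, a factor of newborn neurons, was at 5.89 and 6.27, and at 5.32 in day 10 vehicle cells.

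Listed with BMS641+BMS961 only were 13 neural factors (32.5%, against 7.24%). Atoh1, the proneural factor of cerebellar granule and dorsal interneuron precursors, was highest at 7.44, followed by the neuronal differentiation factor Neurod1 and Onecut1, both at 7.04, and Pou4f2, a factor of retinal and sensory neurons, at 6.71. Pou3f2 (5.94), Nhlh1 (5.57), Sox21 (5.40) and Onecut2 (5.12) were in the middle. Tlx3, which specifies glutamatergic neurons of the dorsal spinal cord, was at 4.80, and Lmx1a, a roof plate and midbrain factor, at 4.62. Ebf1 (3.96), Ebf3 (3.84) and Zic4 (3.66) were under the smallest value of the ATRA table, which leaves 10 of the 13 above it, and 3 of the 13, Atoh1, Neurod1 and Onecut1, exceeded the highest limit of the ATRA table. ATRA-treated WT cells had Neurod1 at 8.76, Pou3f2 at 7.38 and Nhlh1 at 6.83. Sox21 was at 5.74 in day 10 vehicle cells. Lhx5, a factor of interneurons, was listed with ATRA only, at 8.12. Ptf1a, a factor of inhibitory interneurons and pancreas, was down in both (−4.83 and −6.60) and in vehicle (−5.83).

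Of 21 genes of vesicle release and the neuronal cytoskeleton, 8 were up with ATRA (38.1%, against 19% of all listed genes) and 10 with BMS641+BMS961 (47.6%, against 16.8%). All 7 that were up in both were higher with ATRA, as were 118 of all 167 genes up in both. The 7 differences were 0.13 to 1.06, each less than its combined implied SE: Dcx, a microtubule protein of young neurons (5.84 and 5.55), Mapt, which encodes tau (6.21 and 5.42), Gap43, of growth cones (4.96 and 4.39), Actl6b, a neuronal chromatin remodelling subunit (8.23 and 8.10), Chgb, Syt4 and Rab3c. Map2 (3.69), Nefm (3.53) and Scg3 (4.14) were listed with BMS641+BMS961 only, all under the smallest ATRA value, and Scg2 with ATRA only (4.67). Dcx and Mapt were at 8.35 and 8.05 in ATRA-treated WT cells, and neither was listed in day 10 vehicle cells. Tubb3, a neuronal tubulin, was in neither table of the mutant line, and the genes of mature neurons Rbfox3, Syp and Snap25 were in no table of the series. By staining and RT-qPCR, however, the paper reports TUBB3 and MAP2 protein and Tubb3 transcripts in Rara-/- cells with both treatments.

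Of 12 GABA and glycine genes in any table, 5 were listed here, and of 9 glutamate receptor genes, 2. Among all 1753 listed genes 683 were. Slc17a6, the vesicular glutamate transporter VGLUT2, was at 6.89 with ATRA and 9.30 with BMS641+BMS961, a difference of −2.41 against a combined implied SE of 3.52. The glutamate receptor subunit Grin2b was listed with BMS641+BMS961 only, at 4.81. Gad1, which makes GABA, was listed with ATRA only, at 5.48, against 9.59 in ATRA-treated WT cells. By RT-qPCR, however, the paper reports high transcripts of this gene, there called Gad67, in Rara-/- cells with both treatments. The glycine receptor subunit Glrb (4.50) was also listed with ATRA only, whereas the GABA-A subunits Gabra2 (7.67) and Gabrg1 (8.29) were listed with BMS641+BMS961 only.

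Axon guidance and adhesion genes were up in 12 of 31 with ATRA (38.7%, against 19% of all listed genes) and 16 of 31 with BMS641+BMS961 (51.6%, against 16.8%). Of the 10 up in both, 8 were higher with ATRA, against 118 of all 167 genes up in both. The semaphorin receptor gene Nrp1 was higher by 2.24 (7.39 and 5.15) and the mesenchymal cadherin gene Cdh11 by 1.92 (6.22 and 4.30). The guidance receptor gene of commissural axons Robo3 (5.27 and 5.94) and Epha3 (5.06 and 5.36) were lower with ATRA. Listed with BMS641+BMS961 only were the netrin receptor gene Dcc (4.51), Draxin (3.79), Epha4 (3.96), Plxna4 (4.10), Cntn1 (4.88) and Cbln1 (5.56). Draxin, Epha4 and Plxna4 were under the smallest ATRA value. Sema3a (4.47) and the protocadherin gene Pcdh17 (5.21) were listed with ATRA only.

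Of 14 astrocyte and radial glia markers in any table, 6 were up with ATRA (42.9%, against 19% of all listed genes) and 7 with BMS641+BMS961 (50%, against 16.8%). The 1 marker up with BMS641+BMS961 only was at 3.36, under the smallest ATRA value. Hes5, the Notch target of neural progenitors (chr4:154335032-154336480, mm9), had the most negative difference among genes up in both, −2.76 (7.66 with ATRA and 10.42 with BMS641+BMS961, combined implied SE 3.52). Fabp7, a lipid-binding protein of radial glia, had 7.36 and 8.89. The gliogenic factor genes Nfia (7.52 and 6.85), Nfib (7.02 and 5.18) and Nfix (6.76 and 4.69), and Sox9 (7.62 and 6.81), were higher with ATRA. Each of these 6 differences was smaller than its combined implied SE. Aldh1l1, an astrocyte enzyme, was down in both (−5.44 and −3.79) and in vehicle (−6.06). The astrocyte genes Gfap, Aqp4 and Slc1a3 and the oligodendrocyte precursor genes Olig1, Olig2, Cspg4 and Sox10 were in no table of the series, so beside Pdgfra no defining marker of oligodendrocyte precursors was listed. By RT-qPCR the paper reports high Olig2 transcripts in Rara-/- cells with both treatments. The neuron markers that the study collected from other publications had 86 members listed up with ATRA (26.1%, against 19% of all listed genes) and 79 with BMS641+BMS961 (23.9%, against 16.8%), of 330 in any table, 45 of them in both. For its astrocyte markers the counts were 21 and 24 of 98 (21.4% and 24.5%), and for its oligodendrocyte precursor markers 28 and 21 of 100 (28% and 21%). In bulk RNA, fewer cells of a type and less RNA per cell cannot be told apart.

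The genes highest with BMS641+BMS961 only were of mixed kinds. The Wnt ligand gene Wnt10b was at 8.38, but day 10 vehicle cells had it at 9.44. Mlc1, a membrane protein of astrocyte endfeet (8.92), Ptpro, a receptor tyrosine phosphatase of neurons and podocytes (8.49), Srrm4, the splicing factor of neuronal microexons (8.15), the lysosomal enzyme gene Hexa (8.36) and Gm16551 (7.93) were not in the vehicle table. With BMS961 alone in the same mutant line Mlc1 was at 7.14, Ptpro at 6.72, Srrm4 at 6.96 and Hexa at 8.15. ATRA-treated WT cells had Mlc1 at 9.06 and Gm16551 at 7.27, whereas Hexa was not listed there. Of the 127 genes, 27 were listed in day 10 vehicle cells, a share close to that of all 683 genes, 147 of which were listed there. Of the 166 genes up with ATRA only, 11 were.

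Of 45 secreted signals, 14 were up with ATRA (31.1%, against 19% of all listed genes) and 16 with BMS641+BMS961 (35.6%, against 16.8%). None of the 6 listed with ATRA only and 1 of the 8 listed with BMS641+BMS961 only, Wnt1, passed the highest listing limit of the other table. Wnt1, a dorsal midline signal of midbrain and spinal cord (chr15:98620288-98624268, mm9), was at 7.55 with BMS641+BMS961 and not listed with ATRA, and its relatives of the dorsal neural tube Wnt3a (5.50) and Wnt3 (5.15) went with it, together with Wnt4 (3.82), Wnt9a (4.17) and the BMP ligand gene Bmp6 (5.65). ATRA-treated WT cells had Wnt1 at 5.86. Wnt5a (5.10) and Wnt11 (5.14), ligands of noncanonical Wnt signalling, the Wnt agonist gene Rspo3 (4.52) and the growth factor genes Igf1 (5.63), Kitl (5.44) and Pdgfc (4.91) were listed with ATRA only. The fetal growth factor gene Igf2 was up in both and higher with ATRA by 2.71 (6.06 and 3.35). Its ATRA value was the same, 6.06, in RARβ-deficient and RARγ-deficient cells given ATRA, and the reason was not tested. Bmp2 (8.23 and 7.38) and Bmp4 (7.04 and 6.30) were near their day 10 vehicle values of 7.99 and 6.68. The BMP antagonist gene Nog was at 3.88 with BMS641+BMS961 only and at 4.25 in vehicle. Wnt4 and Nog were under the smallest ATRA value.

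**Figure D5:**
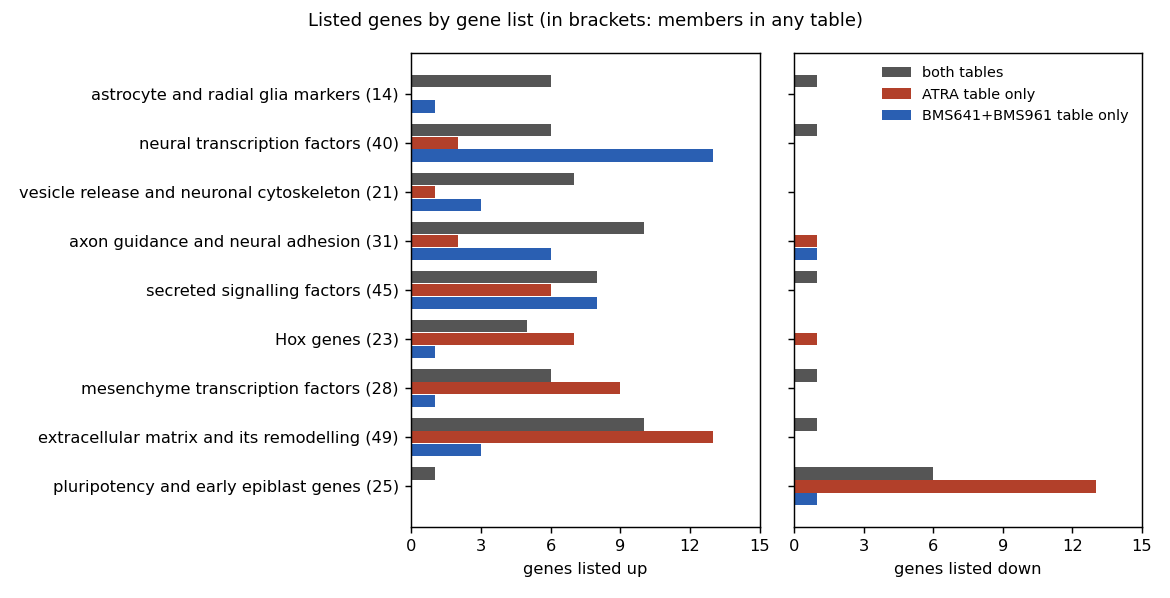
Number of genes listed up (left) and down (right) in both tables, in the ATRA table only and in the BMS641+BMS961 table only, for 9 gene lists, with the members found in any table of the series in brackets. Pluripotency genes down with ATRA only (13), matrix genes up with ATRA only (13) and neural transcription factors up with BMS641+BMS961 only (13) form the longest bars.

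Promoters were searched for AGGTCA, the hexamer that retinoic acid receptors and many other nuclear receptors recognise, on either strand. RefSeq promoter windows (GRCm38.p6, 250 bases before to 50 after the start) were found for 494 of the 683 genes. The hexamer was in 12.1% of their 620 windows, against 16.3% of all 32851 windows. It was in 10.5% of windows of genes up in both tables, 8.15% with ATRA only and 13.6% with BMS641+BMS961 only. Direct repeats of this hexamer, in which GGGTCA as a variant, AGTTCA as another and GGTTCA as a further one were also allowed, with a spacer of 2 or 5 bases, the layouts typical of retinoic acid response elements, were in none of the 620 windows and in 0.365% of all windows. A window of this length does not hold distal elements. The 3 windows below, chosen after their matches were seen, belong to genes of 3 different patterns, Pou5f1 (down with ATRA only), Hoxb4 (up in both) and Tlx3 (up with BMS641+BMS961 only). They lie at chr17:35505782-35506081 (plus strand), chr11:96318017-96318316 (plus strand) and chr11:33203539-33203838 (minus strand), and capitals mark the hexamer.
Pou5f1: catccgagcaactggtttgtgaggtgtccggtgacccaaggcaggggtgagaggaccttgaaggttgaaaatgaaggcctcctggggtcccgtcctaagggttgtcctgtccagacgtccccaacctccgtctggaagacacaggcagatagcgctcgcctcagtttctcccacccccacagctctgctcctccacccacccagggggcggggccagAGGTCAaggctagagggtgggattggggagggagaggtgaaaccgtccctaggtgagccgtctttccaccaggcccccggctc
Hoxb4: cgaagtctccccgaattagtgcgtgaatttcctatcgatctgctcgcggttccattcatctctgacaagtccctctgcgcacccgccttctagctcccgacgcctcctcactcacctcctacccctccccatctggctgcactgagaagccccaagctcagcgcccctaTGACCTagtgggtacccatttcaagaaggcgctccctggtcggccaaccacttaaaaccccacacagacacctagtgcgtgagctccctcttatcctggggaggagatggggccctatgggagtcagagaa
Tlx3: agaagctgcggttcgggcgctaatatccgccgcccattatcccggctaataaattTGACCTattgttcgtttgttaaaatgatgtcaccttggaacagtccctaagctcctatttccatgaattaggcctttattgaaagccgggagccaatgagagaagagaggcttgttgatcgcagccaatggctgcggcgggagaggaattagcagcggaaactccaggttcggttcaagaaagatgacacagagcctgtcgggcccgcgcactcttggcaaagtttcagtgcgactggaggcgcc
Each window has 1 match, in the reverse orientation (TGACCT) for Hoxb4 and Tlx3. A match is a description of these letters and says nothing of binding.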

How the data were processed

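P19 RNA was captured by poly-T and sequenced after NEBNext Ultra II library preparation. According to the methods and labels, the authors aligned reads to mm9 with Bowtie2 2.1.0, counted them with featureCounts and ran DESeq2 on pairs of libraries, the day 2 WT ethanol library always being the reference (version and shrinkage not given in the sources used here). For genes with p under 0.01 the deposited tables give log2 fold changes, with a p-value that the authors did not adjust. 1 other table also holds a standard error, deposited as a score column by the authors. Counts and depth were not analysed here. These values are the authors' own comparisons and are used because the 2 treatments can be compared in no other form. They were not tested again.

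From these values the implied SE was computed as the absolute log2 value divided by the normal quantile of the p-value. In the table of 144 genes that holds a standard error, it matched within a relative difference of 4.27e-08. Genes were classed with a log2 value over 2 or under −2. The classes and differences were checked on simulated tables. Named genes were the 8 with the highest mean log2 value in both tables and the 8 highest in each table alone, the 6 largest differences either way, the 5 lowest of each down class and the listed members of hand-made gene lists. The members and lists were chosen with earlier results of these data known, and genes named beside a list's count are its members. Symbols were matched to the mm9 annotation for 611 of 683 genes. Reads of overlapping genes cannot be separated here. The Python libraries pandas, scipy and matplotlib were used. A few genes that the naming rule or the lists would name are not reported here, though they stay in the counts.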

Additional observations from a re-analysis of the deposited data

How the results depend on the processing

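The 46 recomputed values covered other thresholds, exclusions and error limits, and 24 of them stayed within 1.5 times of the reported one. No median changed sign. With a log2 threshold of 5 in place of 2, genes up with BMS641+BMS961 only fell to 59, those down in both to 30 and those down with BMS641+BMS961 only to 18, while those up with ATRA only numbered 168 and those down with ATRA only 112. With a p-value limit of 0.001 in both tables, 33 genes were up in both (28 of them higher with ATRA), 59 with ATRA only and 50 with BMS641+BMS961 only, while 11 were down in both, 41 with ATRA only and 11 with BMS641+BMS961 only, and 4 genes in both differed by over 1 combined implied SE. With p under 0.001 asked only of the table that lists the gene, 29 genes were up with ATRA only, 16 with BMS641+BMS961 only, 23 down with ATRA only and 2 down with BMS641+BMS961 only. Under 1 common floor of absolute log2 values, genes down with BMS641+BMS961 only numbered 23. Without genes of the day 10 vehicle table, 39 were down in both. A limit of 2 combined implied SE left 4 genes. Beyond the highest listing limit of the other table, an alternative chosen after seeing the data, there were 92 genes up with ATRA only, 22 up with BMS641+BMS961 only, 30 down with ATRA only and 1 down with BMS641+BMS961 only.

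No paired analysis was possible because each treatment has 1 library. For the same reason no replicate was left out, and no difference was set against the spread between cultures. Log2 values of genes with few or no reads in the reference depend on the authors' fit. ATRA and the agonists were given at different doses, and the mutant line has no vehicle library here.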
